A study of Mus musculus with 6 samples.

Results

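ATF3 binding was examined at 10 genes that encode other factors of the ATF and CREB families and the stress factors CHOP and XBP1. All peaks whose named gene in the deposited annotation was Atf2, Atf4, Atf5, Atf6, Atf7, Creb1, Creb5, Crem, Ddit3 or Xbp1 were taken from the 6 peak lists. This gave 18 of 16759 peaks, 12 of 11888 in the standard lists and 6 of 4871 in the KOIN-corrected lists. They fell at 6 loci, 1 each at Atf2, Atf6, Creb1, Creb5, Crem and Ddit3, and 4 genes, Atf4, Atf5, Atf7 and Xbp1, were named by no peak.

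The data are ATF3 ChIP-seq of BMDMs, macrophages that are differentiated from bone marrow cells in culture under the growth factor M-CSF. WT (Atf3 +/+) and ATF3-deficient (Atf3 -/-, KO) mice gave the cells. C57BL/6 is given as the background of the WT mice, and an age of 6 to 8 weeks is recorded for both genotypes. Cells were left unstimulated, received HDL at 2 mg/ml for 6 h, or received HDL and then CpG at 100 nM for 4 h. HDL is the lipoprotein that carries cholesterol away from cells, while CpG is DNA that is sensed through Toll-like receptor 9. All groups had spent 6 days in M-CSF (40 ng/ml) before treatment, and the same rabbit antibody against ATF3 was used throughout. The labels name 3 biological replicates whose reads the authors joined before alignment, although the deposited barcode list names more raw files than that for both unstimulated groups and for WT with HDL. Either way, each condition holds 1 WT and 1 KO library. All intervals below therefore cover counting error only, and all tests compare these libraries, not mice. The libraries hold 37137377 to 75534584 reads, and the KO library was 2.03 times as deep as the WT library in unstimulated cells, 1.74 times with HDL and 0.96 times with HDL + CpG.

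ATF3 belongs to the basic leucine zipper (bZIP) proteins. Members of this class grip DNA as dimers, and partners from the ATF, CREB, FOS, JUN and C/EBP families decide which sequence is read, the AP-1 site, the cAMP response element (CRE) or composites of ATF and C/EBP half-sites. In the integrated stress response, phosphorylation of the translation factor eIF2α lets the cell translate ATF4, which switches on ATF3 and CHOP, the protein made from Ddit3. In the unfolded protein response of the endoplasmic reticulum, ATF6 is cut at the Golgi to become a transcription factor and XBP1 is made active by splicing of its mRNA. CREB1 and CREM answer cAMP, and short CREM products made from an internal promoter, called ICER, repress that answer and their own gene.

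At 5 of the 6 loci the peak held a full bZIP word at some position, and the sequence around these words is printed. Among all standard peaks, 25.5% held a word anywhere in the peak in unstimulated cells, 34.2% with HDL and 32.4% with HDL + CpG. Among standard promoter peaks the shares were 61.6%, 48.3% and 48.2%. Sequences are the plus strand of the NCBIM37 reference (mm9), with matched words in capitals. At Ddit3 and Creb5 each stretch ends before the first annotated exon.
Ddit3 promoter, chr10:126727473-126727618: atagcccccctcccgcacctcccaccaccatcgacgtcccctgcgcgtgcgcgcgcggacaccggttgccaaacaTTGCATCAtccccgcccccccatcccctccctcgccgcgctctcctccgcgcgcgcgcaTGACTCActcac
Creb5 promoter, chr6:53523248-53523377: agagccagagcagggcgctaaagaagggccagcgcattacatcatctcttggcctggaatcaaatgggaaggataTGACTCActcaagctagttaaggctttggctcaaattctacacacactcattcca
Creb1 upstream, first site, chr1:64420608-64420764: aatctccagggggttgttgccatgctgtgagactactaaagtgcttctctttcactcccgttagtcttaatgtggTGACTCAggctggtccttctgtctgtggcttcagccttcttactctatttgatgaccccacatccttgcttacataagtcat
Creb1 upstream, second site, chr1:64421357-64421513: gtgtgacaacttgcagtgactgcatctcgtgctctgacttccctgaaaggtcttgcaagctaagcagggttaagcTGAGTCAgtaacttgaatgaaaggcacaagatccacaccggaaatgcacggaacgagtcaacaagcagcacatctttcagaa
Atf6 intron, chr1:172783811-172783967: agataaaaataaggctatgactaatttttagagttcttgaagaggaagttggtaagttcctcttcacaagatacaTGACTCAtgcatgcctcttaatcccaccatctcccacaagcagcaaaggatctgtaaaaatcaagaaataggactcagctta
Atf2 intron, chr2:73705948-73706097: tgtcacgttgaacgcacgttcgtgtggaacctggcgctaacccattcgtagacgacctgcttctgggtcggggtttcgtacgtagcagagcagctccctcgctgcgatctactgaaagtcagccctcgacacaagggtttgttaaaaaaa

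TGACTCA and TGAGTCA are the AP-1 word and its reverse complement. TTGCATCA in the Ddit3 promoter is the reverse complement of TGATGCAA, the composite of an ATF and a C/EBP half-site, and 51 bases separate it from the AP-1 word. The Atf2 stretch, which held none of the words searched, is shown for contrast. Crem held the CRE word TGACGTCA at 2 positions, with 59 bases between them, and its sequence is not printed here.

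In each list a peak has a tag count for WT and for KO, normalized by the authors to 10000000 tags per library. The standard list was called on the WT library without the KO. The KOIN-corrected list (knockout implemented normalization) was called with the KO library as control and holds only peaks with at least 2 times as many normalized tags in WT as in KO. A standard peak is called kept when it shares at least 1 bp with a KOIN-corrected peak of its condition. In unstimulated cells 1 of 3 member peaks was kept, beside 20.7% of all 2779 standard peaks. With HDL the count was 2 of 5, beside 54.9% of 5319, and with HDL + CpG 3 of 4, beside 29.7% of 3790. The members kept were Creb5 in unstimulated cells, Creb5 and Crem with HDL, and Atf6, Creb1 and Ddit3 with HDL + CpG. Some members had no standard peak to keep: Atf6, Creb1 and Crem in unstimulated cells, Atf6 with HDL, and Atf2 and Creb5 with HDL + CpG. Creb5 with HDL and Crem with HDL + CpG lay close to the limit of 2, at 2.01 and 1.96. No share over all peaks is given for the overlap of kept peaks between conditions. No KOIN-corrected member peak lay outside a standard one.

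**Figure D1:**
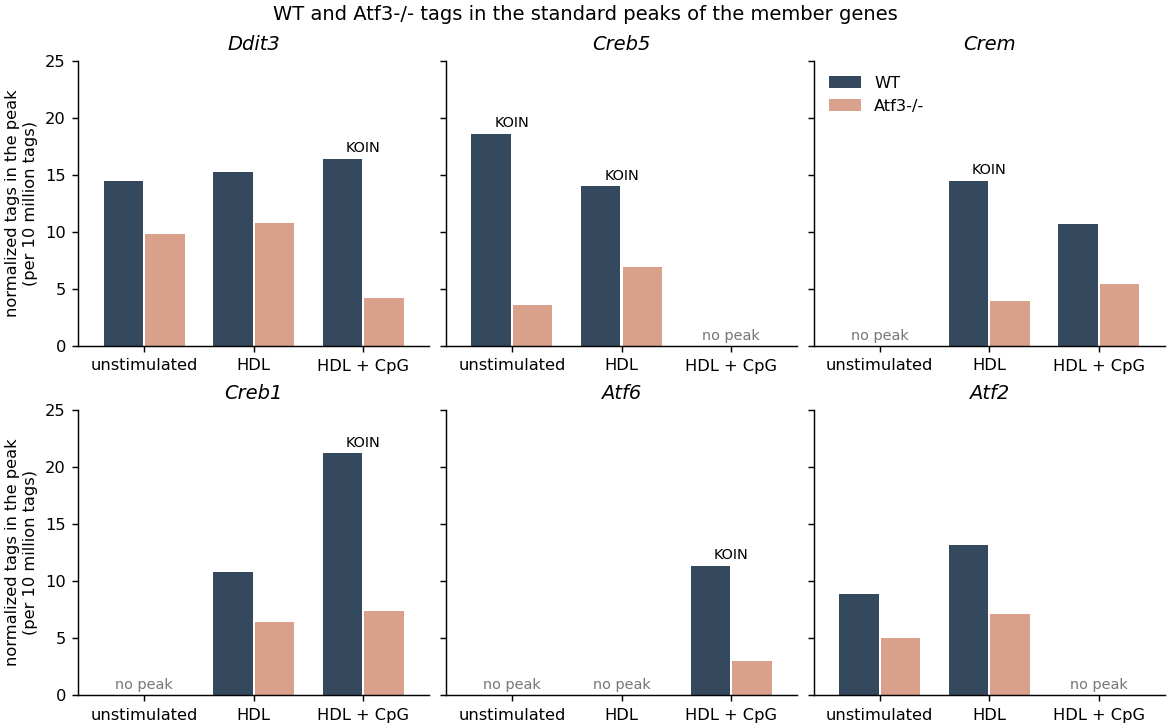
Normalized tags (per 10000000) in the standard peaks of the 6 genes that have one, WT (dark bars) and Atf3-/- (light bars), by condition, 1 library per bar. "KOIN" marks peaks kept in the KOIN-corrected list, and the Ddit3 bars show WT tags near 15 throughout and KO tags lowest with HDL + CpG.

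Ddit3 encodes CHOP, the C/EBP-family factor of prolonged stress, and is the only member gene with a standard peak in all 3 conditions. The peak covered the promoter each time, at chr10:126727218-126728062 in unstimulated cells, chr10:126727166-126728095 with HDL and chr10:126727062-126728079 with HDL + CpG. Its centre lay 190, 200 and 260 bp before the first annotated Ddit3 start, and its far end reached into exon 1 and into an exon of RP24-341K21.6, a noncoding transcript on the opposite strand. ChIP signal carries no strand, and the start of Mbd6 lay 1.5 to 1.57 kb from the centres, so the tags cannot be given to 1 of these transcripts.

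WT tags in the Ddit3 peak were 14.5 in unstimulated cells, 15.3 with HDL and 16.4 with HDL + CpG. KO tags were 9.8, 10.8 and 4.21. The WT libraries were thus almost level while the KO library of HDL + CpG stood lowest. In reads, WT over KO was 54 over 74, 58 over 71 and 81 over 20. Since the peak was called wider with HDL + CpG, the same values per kb of peak are 17.2, 16.4 and 16.1 tags for WT and 11.6, 11.6 and 4.14 tags for KO. On this scale too, the KO library of HDL + CpG stood lowest and WT hardly differed.

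In unstimulated cells WT/KO at Ddit3 was 1.48 (95% interval 1.03 to 2.14), and the two-sided exact binomial test of its reads against the library totals, adjusted by Benjamini-Hochberg over all standard peaks of the condition, gave p = 0.0526. With HDL the ratio was 1.42 (0.988 to 2.04, adjusted p = 0.0662 in the same exact test). Neither reached the threshold of 0.05, although the unstimulated peak did when p-values were adjusted over all 3 conditions at once (0.0478). With HDL + CpG the ratio was 3.89 (2.36 to 6.7, adjusted p = 5.17e-08 in the exact test), and the peak was kept. Its MACS score was 111.49 in the KOIN-corrected list. In the standard lists the score was 119.06 in unstimulated cells, 93.15 with HDL and 78.19 with HDL + CpG, the lowest of the 3. Relative to other promoter peaks of the standard list, 11.6% had a lower ratio in unstimulated cells, 6.74% with HDL and 81.2% with HDL + CpG.

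The difference between conditions was tested at each locus with a standard peak in both, by a two-sided exact conditional test of the 4 read counts, adjusted over all such loci. Under HDL + CpG, WT/KO at Ddit3 was 2.62 times its unstimulated value (95% interval 1.38 to 5.05, adjusted p = 0.00759 by the exact test over 1749 loci, of which 27.6% passed in either direction). Against HDL alone it was 2.73 times as high (1.45 to 5.25, adjusted p = 0.00353 by the exact test over 2394 loci, of which 35.8% passed). Both comparisons use the same HDL + CpG libraries. Between HDL and unstimulated cells the ratio of WT/KO was 0.959 (0.568 to 1.62, adjusted p = 0.969 in the exact test over 2011 loci, of which 21.7% passed). Passing this test was thus common among all loci. The direction at Ddit3 was not the usual one, since the median WT/KO over all loci was 0.76 times the unstimulated and 0.709 times the HDL value.

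Taken by genotype, WT tags at Ddit3 with HDL + CpG were 1.13 times those of unstimulated cells (95% interval 0.788 to 1.62), and KO tags were 0.43 times (0.248 to 0.712). At the 1749 shared loci the median change was 0.906 for WT and 1.24 for KO. A lower KO change than that of Ddit3 was found at 1.6% of these loci, and a lower WT change at 75.5%. Against HDL the values were 1.07 (0.755 to 1.53) for WT and 0.392 (0.226 to 0.651) for KO, and 2.67% of 2394 loci had a lower KO change. These ratios were computed after the tag counts had been seen and are given as descriptions. The depth of the KO library relative to WT also fell between these conditions, and its part in the result was not tested.

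**Figure D2:**
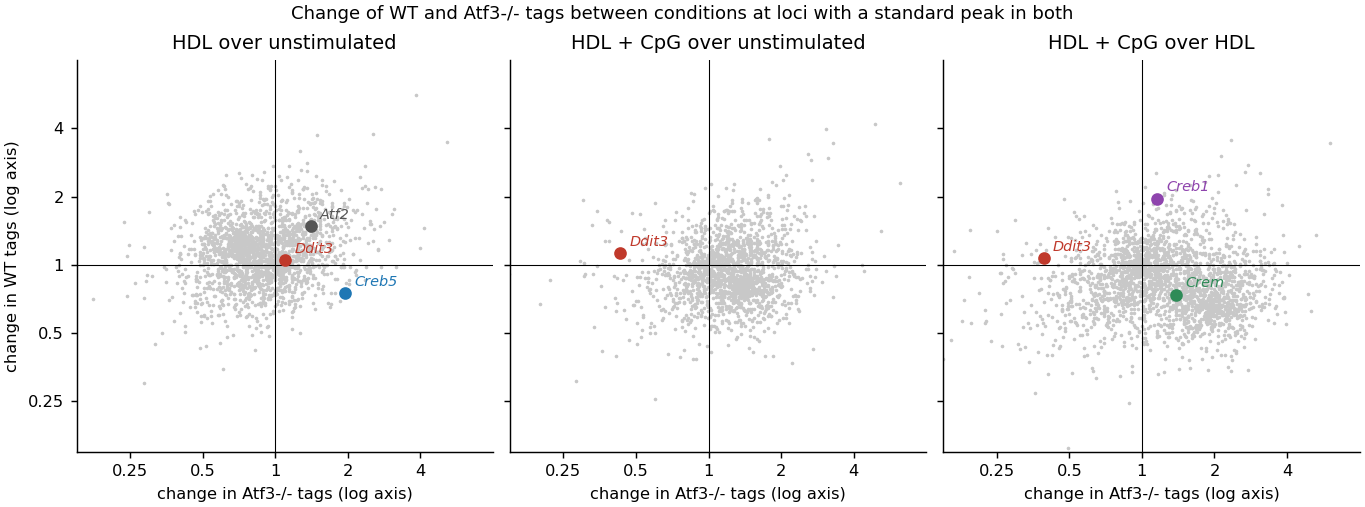
Change of normalized tags between 2 conditions in Atf3-/- (horizontal, log axis) and WT (vertical, log axis) at every locus with a standard peak in both, grey for all loci and coloured for members. Ddit3 lies left of nearly all loci in both panels with HDL + CpG, at a KO change of 0.43 and 0.392, with a WT change near 1.

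Likeness to the Ddit3 promoter was measured as the Euclidean distance in log2 WT/KO over the 3 conditions, among 38 loci with a standard promoter peak in all of them. The nearest was Mll1, a histone methyltransferase gene, at a distance of 0.74 and ratios of 1.61, 0.871 and 3.47. Iars, which encodes an aminoacyl-tRNA synthetase, followed at 0.84 with ratios of 2.58, 1.4 and 3.22. Ppp1r15b, which encodes a subunit of the phosphatase that reverses eIF2α phosphorylation, was next at 1.04 with ratios of 1.67, 2.74 and 2.93. The rise in log2 WT/KO from unstimulated to HDL + CpG was 1.39 at Ddit3 and smaller at 34 of the 38 promoters, which include Ddit3 itself. It was larger at Trp53cor1 (2.62), Card9 (1.72) and Nudt18 (1.56).

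Creb5, a CREB-related factor that binds the CRE, had its peak at the promoter, at chr6:53522899-53523785 in unstimulated cells and chr6:53522901-53523656 with HDL. The peak centre lay 36 and 100 bp before the GENCODE M1 start, and 26 and 90 bp before the start in the authors' annotation. The peak overlapped exon 1. WT tags were 18.6 in unstimulated cells and 14 with HDL, and KO tags were 3.57 and 6.96. The WT count was thus lower and the KO count higher with HDL, though the 95% interval of the WT change (0.516 to 1.09) includes 1. Per kb of peak, WT held 20.9 and 18.5 tags and KO 4.02 and 9.21 tags. WT/KO was 5.2 in unstimulated cells (95% interval 3.29 to 8.44, adjusted p = 2.34e-13 in the exact binomial test), and 98.5% of all standard peaks of the condition had a lower ratio. With HDL it was 2.01 (1.33 to 3.05, adjusted p = 0.00132 in the same exact test), and 33.7% had a lower ratio. Divided by the median WT/KO of the list it was 0.834 with HDL (adjusted p = 0.67 in the exact test).

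The Creb5 ratio with HDL was 0.386 times that of unstimulated cells (95% interval 0.203 to 0.729, adjusted p = 0.0132 in the exact conditional test). By genotype, WT changed 0.752-fold (0.516 to 1.09) and KO 1.95-fold (1.19 to 3.26), and 97.2% of the 2011 shared loci had a lower KO change. The median WT/KO of these loci was 1.26 times as high with HDL. Creb5 kept its KOIN-corrected peak with HDL by a narrow margin, on 53 WT and 46 KO reads. With 47 KO reads the ratio would have been 1.96, under the authors' limit of 2. With HDL + CpG no list named Creb5, and the nearest standard peak lay 286 kb from its start. The lists give no tag counts where no peak was called, so the tags at the Creb5 promoter in that condition were not analysed here.

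Crem peaks lay inside the gene, at chr18:3280709-3281466 with HDL and chr18:3280605-3281420 with HDL + CpG. The authors' annotation places them in intron 5 of 7 of the long transcript, 658 and 733 bp into the gene from the nearest RefSeq start. In the GENCODE M1 annotation of this assembly, short Crem transcripts start within the peak, and the nearest start lay 11 bp from the centre with HDL and 64 bp with HDL + CpG. Both CRE words were in each peak. WT tags were 14.5 with HDL and 10.7 with HDL + CpG, and KO tags were 3.94 and 5.47. Here too WT was the lower and KO the higher in the later condition, though on 55 and 53 WT reads and 26 KO reads in each.

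WT/KO at Crem was 3.68 with HDL (95% interval 2.27 to 6.12, adjusted p = 7.64e-08 in the exact binomial test) and 1.96 with HDL + CpG (1.2 to 3.26, adjusted p = 0.0131 in the same test). Divided by the median WT/KO of the list, the ratios were 1.53 and 1.38 and neither passed (adjusted p = 0.221 and 0.297 in the exact test). Only the first peak was kept. With 25 instead of 26 KO reads the second would have had a ratio of 2.04, above the limit. The ratio of the ratios was 0.531 (0.26 to 1.09), and the exact conditional test did not pass (adjusted p = 0.136). The loss of Crem from the KOIN-corrected list is thus not a difference shown between the conditions.

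**Figure D3:**
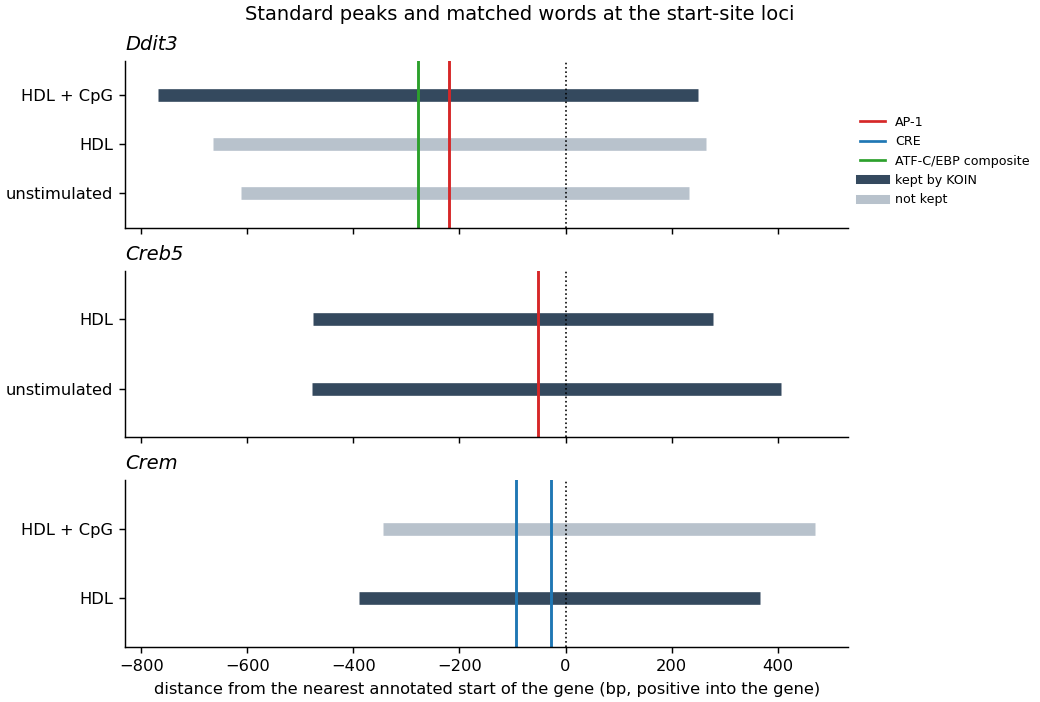
Extent of the standard peaks at Ddit3, Creb5 and Crem in bp from the nearest annotated start of the gene, positive into the gene, with matched words as coloured lines. Dark bars are kept by KOIN, and every bar spans the start site and all words of its locus.

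Creb1 encodes the CREB protein itself. Its peak lay in intergenic DNA, at chr1:64421018-64421720 with HDL and chr1:64420229-64421820 with HDL + CpG, 158 kb before the Creb1 start, the nearest annotated protein-coding start. The next were Mettl21a at 241 kb and Klf7 at 252 to 253 kb. The assignment to Creb1 rests on this distance. WT tags were 10.8 with HDL and 21.2 with HDL + CpG, and KO tags were 6.36 and 7.37. Both counts rise with the window, which was 703 bp wide with HDL and 1592 bp with HDL + CpG. Per kb of peak, WT held 15.4 and 13.3 tags and KO 9.05 and 4.63 tags. The higher WT count with HDL + CpG is thus not a higher density.

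WT/KO at the Creb1 peak was 1.7 with HDL (95% interval 1.08 to 2.68, adjusted p = 0.0218 in the exact binomial test) and 2.88 with HDL + CpG (1.95 to 4.35, adjusted p = 2e-07). The ratio of the ratios was 1.69 (0.915 to 3.14, adjusted p = 0.173 in the exact conditional test), and the call depends on the scaling. With each condition scaled by the median WT/KO of its standard peaks, the ratio of ratios was 2.87 and its adjusted p = 0.00226 by the exact test. The share of all shared loci that passed under this scaling is not given here. The windows differ in width, and the locus drops out where peaks must share 50% of both widths. The wider peak held an AP-1 word that the narrower one does not cover, 742 bases from the shared word.

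Atf6 encodes the membrane-bound factor of the unfolded protein response. Its single peak, with HDL + CpG, lay in intron 2 of 15 at chr1:172783403-172784292, 14.1 kb into the gene. It held 11.3 WT and 2.95 KO tags, on 56 and 14 reads. The ratio of 3.84 (95% interval 2.11 to 7.47, adjusted p = 8.96e-06 in the exact binomial test) was among the higher of the list, since 91.4% of all standard peaks had a lower one. The AP-1 word lay within 100 bp of the centre. In unstimulated cells and with HDL the nearest standard peaks to an Atf6 start were 177 and 85.6 kb away and were named for the Fc receptor genes Fcgr3 and Fcgr2b.

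Atf2 encodes a CRE-binding factor that pairs with JUN. Its peak lay in intron 4 of 14, at chr2:73705747-73706298 in unstimulated cells and chr2:73705657-73706569 with HDL, and no Atf2 peak was called with HDL + CpG. By the authors' annotation the peak lay 24.7 and 24.6 kb into the gene from the RefSeq start. In GENCODE M1 it lay 4.73 and 4.82 kb before the nearest Atf2 start. At its centre the authors' annotation names repeats, the ribosomal RNA repeat LSU-rRNA_Hsa in the first and RMER1B in the second. Reads from near-identical copies elsewhere could fall here, so these counts are uncertain. WT tags were 8.89 and 13.2, and KO tags were 5.03 and 7.11. The HDL peak was the wider, at 913 against 552 bp, and per kb of peak the tags were the lower there, at 16.1 and 14.4 for WT and 9.11 and 7.79 for KO. The ratio was 1.77 (95% interval 1.07 to 2.89) and 1.85 (1.22 to 2.82), with a ratio of the ratios of 1.05 (0.543 to 2.03). Both passed the exact binomial test (adjusted p = 0.0403 and 0.00457), neither did so once divided by the median WT/KO of its list (1.06 and 0.77), and neither peak was kept.

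Read over all members, 2 of 3 standard peaks had more WT than KO reads by the exact binomial test without stimulus, 4 of 5 under HDL and 4 of 4 under HDL + CpG. The share of all standard peaks was 56.2%, 79.5% and 40.9%. The 2 member peaks that did not pass were those of Ddit3. Median WT/KO over the member peaks was 1.77, 1.85 and 3.36, beside 1.66, 2.41 and 1.42 over all standard peaks. With HDL the members' median was thus the lower, and in the other conditions the higher. The WT library also chose the standard peaks, which favours WT over KO in this test for members and for all peaks alike. Against the median WT/KO of their list, 1 of 3, 0 of 5 and 3 of 4 member peaks passed, beside 10.1%, 6.69% and 22.4% of all standard peaks, and the scaled ratio was below 1 at Ddit3 in unstimulated cells and at Atf2, Creb1, Creb5 and Ddit3 with HDL.

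**Figure D4:**
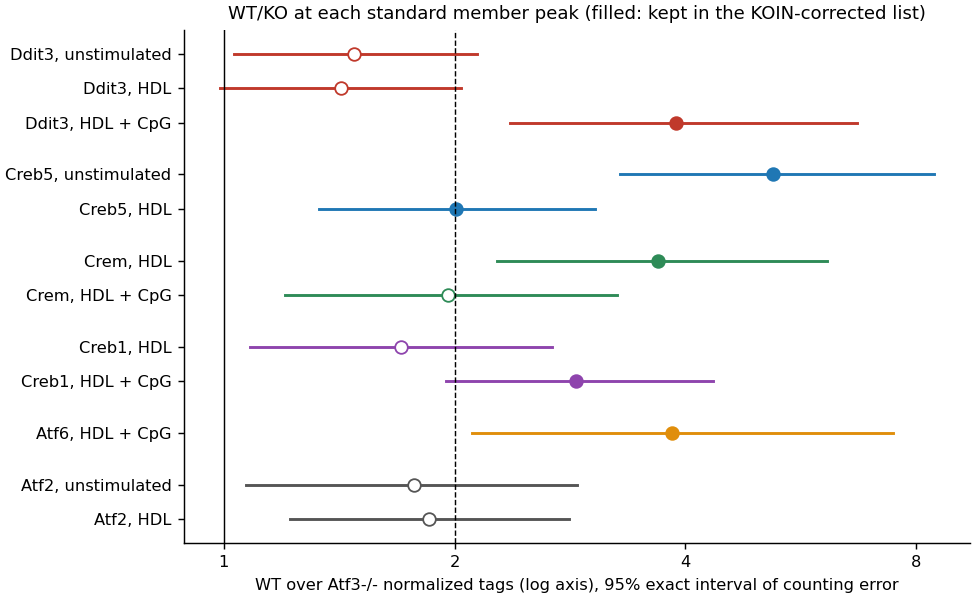
WT over Atf3-/- normalized tags (log axis) at the 12 standard member peaks, points with 95% exact intervals of counting error, filled where the peak was kept by KOIN. Creb5 with HDL at 2.01 and Crem with HDL + CpG at 1.96 sit on either side of the dashed line at 2.

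**Figure D5:**
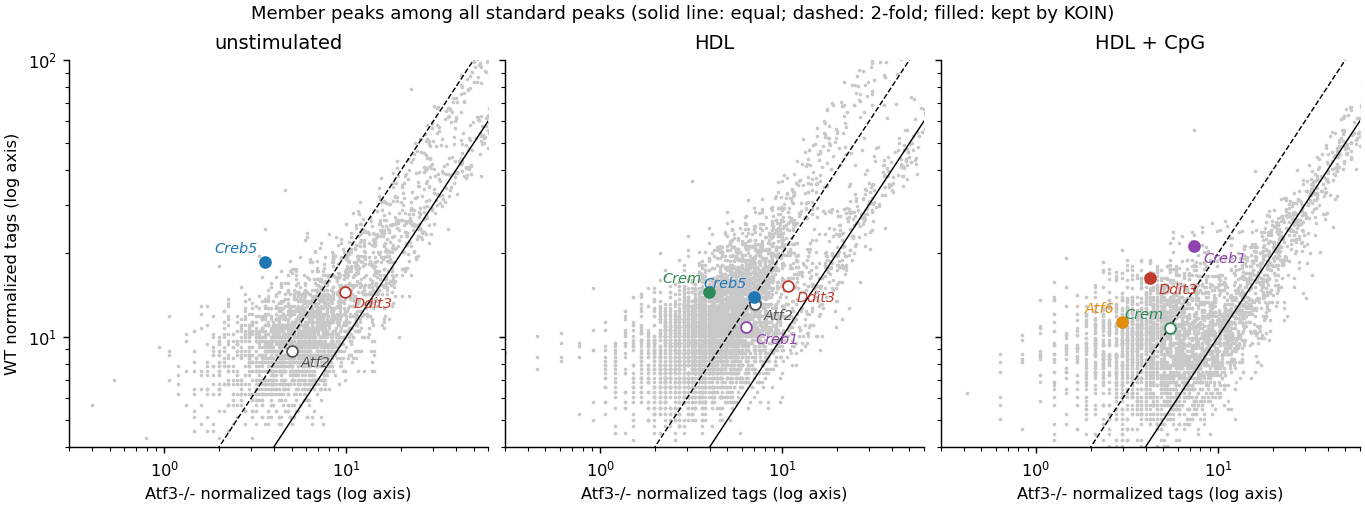
WT against Atf3-/- normalized tags (log axes) of all standard peaks (grey) and the members (coloured, filled where kept by KOIN), with lines of equal tags (solid) and of 2-fold (dashed). Creb5 stands above nearly all unstimulated peaks of its KO level, and Ddit3 moves across the dashed line with HDL + CpG. The axes leave out peaks beyond their limits.

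Words were searched on both strands within 100 bp of the peak centre. A word was present in 2 of 3 member peaks without stimulus, 4 of 5 under HDL and 3 of 4 under HDL + CpG, beside 12.2%, 20.7% and 19.3% of all standard peaks in windows of the same length. Among standard promoter peaks the shares were 40.7%, 33.7% and 35.9%. The AP-1 word was in 9.36%, 16.4% and 16.6% of all windows. The pair seen at Ddit3, an AP-1 and a composite word in 1 window, occurred in 49 of the 11888 standard peaks (0.412%). A CRE at 2 or more positions of the peak, as at Crem, occurred in 13 (0.109%). Both patterns were taken from these loci, whose own peaks are in the counts. The totals join the lists of 3 conditions, so a locus can count more than once. Promoter peaks hold the composite word more often, in 15.1%, 8.99% and 8.82% of windows beside 2.27%, 3.03% and 1.95% of all windows. The variants TGACGCAA and TGACGTAA were in no member peak. Such matches describe the sequence and are not evidence of which protein was bound.

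The members without a peak include the central activators of both stress pathways. Atf4, which is translated under stress and drives amino acid genes, had its nearest standard peak 183 kb from a start in unstimulated cells and 156 kb away with HDL and with HDL + CpG, where the peak lay in Syngr1. At Xbp1, the nearest standard peak was 220 kb away in unstimulated cells, 26.7 kb with HDL and 459 kb with HDL + CpG. The one at 26.7 kb was named for Ccdc117 and kept, with 6.06 WT and 2.88 KO tags. For Atf5, an ATF4-related factor, the distances were 635, 299 and 76.8 kb, and for Atf7, a relative of Atf2, they were 73.8, 73.9 and 138 kb. A gene with no called peak can still be bound below the threshold of the peak caller.

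Other genes of these pathways were counted from 3 lists, as genes that a KOIN-corrected peak names out of those that a standard peak names. Over all genes this share was 24.9% without stimulus, 63% under HDL and 34.9% under HDL + CpG. Among 20 further ATF, CREB and BATF factors and partners it was 2 of 5, 4 of 7 and 5 of 7 genes. Their highest-scoring KOIN-corrected peaks within 100 kb lay 29.2 and 26.6 kb from the start of Crtc3, a coactivator of CREB, inside introns of the neighbouring gene Iqgap1, at ratios of 2.47 in unstimulated cells and 6.65 with HDL, and in intergenic DNA named for Atf3 itself. The Atf3 ratios were 2.14 at 18 kb and 2.03 at 47.6 kb in unstimulated cells, 3.18 at 47.3 kb and 4.32 at 41.1 kb with HDL, and 3.21 at 47.5 kb with HDL + CpG. Nfil3 and Batf, 2 bZIP genes, followed in the last condition at 2.83 and 2.79, with peaks in introns 4.17 and 18.9 kb from the start. A standard peak at the Atf3 promoter was not kept in any condition, at ratios of 1.73, 1.81 and 1.97. Signal at this promoter does not check the knockout, since the deleted part of the gene is not given in the sources used here.

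Among 36 genes of the integrated stress and unfolded protein responses, 0 of 7 were kept without stimulus, 8 of 11 under HDL and 4 of 10 under HDL + CpG. The highest-scoring with HDL were the promoter of Herpud1, a factor of protein degradation at the endoplasmic reticulum, at 24.8 WT and 8.17 KO tags, an intron of the amino acid transporter gene Slc7a5 at 23.7 and 8.48, and the first exon of Trib3, an ATF4 and CHOP target, at 21.9 and 5.15. With HDL + CpG they were the Ppp1r15b promoter at 12.3 WT and 4.21 KO tags, Slc7a5 at 12.9 and 4.84, and a peak 1.85 kb from Hspa5, the chaperone BiP, at 12.7 and 5.68. Among 23 known CREB targets the counts were 2 of 5, 10 of 12 and 5 of 9 genes. In unstimulated cells these were Pde4a and Fosb, in intergenic DNA 20.5 and 6.49 kb from the start, at ratios of 2.53 and 2.26. Fosb and Per1, which encode an AP-1 subunit and a clock factor, had promoter peaks with HDL at ratios of 4.64 and 4.12, and an intron of the survival gene Bcl2 scored between them, at 4.33. Mcl1, a relative of Bcl2, had the highest score with HDL + CpG, in intergenic DNA 7.87 kb from its start, at a ratio of 4.11. Bcl2 followed at 2.88, in an intron 86.9 kb from the start, and Fos at 2.8, in intergenic DNA 45.9 kb away. These counts were not tested against the share over all genes.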

How the data were processed

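Per the labels, reads were handled with CASAVA 1.8 and Bowtie 0.12.8 (mm9), peaks called with MACS 1.4.2 and annotated with HOMER 4.3, after 3 replicates were pooled. The authors' signal per peak is its tags normalized to 10000000 per library, and the deposited score is that of MACS. A further deposited column holds the authors' own WT/KO fold and was not used, nor was the barcode list. Every tag value lay within 0.005 tags of a whole read, and the totals in the file headers were used to turn tags into reads. Intervals are exact, at 95%, and no pseudocount was added. The tests were checked on simulated data. Members and gene lists were chosen with earlier results of these data known. All member peaks are named, with the 3 highest-scoring KOIN-corrected peaks per list and condition as examples. Words were searched in the NCBIM37 reference, which contains all 16759 peaks. Alternatives were a median scaling, joint adjustment, score minimums of 60 and 100, overlap of 50%, distance limits of 100 and 10 kb, windows of 50 bp or the whole peak, and a pseudocount of 1 tag. Python 3.11.15, numpy 2.4.6, pandas 2.3.3, scipy 1.17.1 and matplotlib 3.10.9 were used.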

Additional observations from a re-analysis of the deposited data

Results flagged for a closer look

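The effect of genotype differed between conditions at Ddit3 and Creb5 by the exact conditional test over all shared loci. At Ddit3, WT/KO with HDL + CpG was 2.62 times that of unstimulated cells and 2.73 times that with HDL, and both values rest on the 20 KO reads of the HDL + CpG library. At Creb5, WT/KO with HDL was 0.386 times that of unstimulated cells. Between 21.7% and 35.8% of all shared loci passed the same test, and each value compares pooled libraries without replicates.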

How the results depend on the processing

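Of 85 values recomputed under an alternative, 57 kept their direction and call, or, for counts, stayed within 1.5 times. Scaling each condition by the median WT/KO of its standard peaks (1.66, 2.41 and 1.42) moved the most. It lowered the member peaks with more WT reads from 2 to 1 in unstimulated cells and from 4 to 0 with HDL, and raised the loci that differ between HDL and HDL + CpG from 1 to 2. Under it, WT/KO fell below 1 at Ddit3 in unstimulated cells (0.894) and, with HDL, at Creb1 (0.707), Ddit3 (0.592, adjusted p = 0.0189 in the exact test), Atf2 (0.77) and Creb5 (0.834), and the HDL over unstimulated ratio of Atf2 became 0.724. The differences at Ddit3 with HDL + CpG (3.07 and 4.63) and at Creb5 (0.267) passed under it as well. These scaled calls between conditions have no share of all shared loci beside them and are descriptions only. A score of at least 100 left only 1, 0 and 1 member peaks in unstimulated, HDL and HDL + CpG cells. Of these 0, 0 and 1 were kept (all peaks 9.08%, 63.3% and 8.8%) and 0, 0 and 1 had more WT reads (59.7%, 77.3% and 17.2%). A score of at least 60 left 2, 4 and 2 member peaks, with more WT reads at 1 and 2 in unstimulated and HDL + CpG cells (57% and 33.4%), and 1 gene with a KOIN-corrected peak with HDL. That gene count has no share of all genes beside it and is a description only. Within 10 kb of a start site, 1, 2 and 2 peaks had more WT reads, and with HDL + CpG 1 peak was kept and 1 gene had a KOIN-corrected peak. The counts under this distance limit have no share of all peaks beside them and are descriptions only. Within 50 bp of the centre, 2 of 5 HDL peaks held a word, beside 11.9% of all standard peaks and 22.1% of standard promoter peaks with HDL. No paired analysis was possible because the deposited lists hold 1 pooled library per genotype and condition. Counts of 14 to 105 reads per peak set the width of the intervals.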
